A study of Drosophila melanogaster with 16 samples.

Results

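The genes mv, Bruce, dikar, poe, puf, CG8677, tweek and Dlg5 were the 8 protein-coding genes, of 13946 on the main sequences, with the largest excess of H3K4me1-covered bases at day 50 over day 10. They were chosen by that measured value, so their H3K4me1 values are a description and carry no test. For each gene the bases under peaks were counted in its region, the gene body extended by 1000 bp at either end, on Release 6 coordinates. Chromatin came from heads of wild-type male Drosophila melanogaster of the strain w1118, at day 10 (young) and day 50 (old) of adult life, and all groups carry the w1118 allele of the eye colour gene white, with no treatment or mutant group. Each mark and age had 2 chromatin immunoprecipitation and 2 input samples, 16 in all, each from 50 mg of pooled heads. The values come from 4 lists of peaks, and each list was made from both replicates of a mark at an age together. The H3K4me1 list held 43871 peaks at day 10 and 41851 at day 50, and the H3K27ac list 26699 and 25439. With 1 list per group there is no spread between replicates, no test of age and no read depth, and every difference below is a difference between a pair of lists.

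Monomethylated histone H3 (H3K4me1) is laid down by the methyltransferase Trr and its relatives, marks enhancers, and spreads over the transcribed bodies of genes next to active promoters. Acetylation at a different lysine of the same tail (H3K27ac) marks active promoters and enhancers. In a whole head, the list of peaks mixes neurons, glia, photoreceptors, fat body and other cells, so more cells with a mark and more mark per cell cannot be told apart. Markers of head tissue differed in both directions. In H3K4me1 bases the neuronal genes brp (10549 bp at day 10 and 8317 bp at day 50), nSyb (5042 and 4157 bp) and elav (3468 and 3157 bp) and the photoreceptor gene trp (1684 and 1014 bp) had fewer at day 50. The neuronal gene Syt1 (2912 and 3027 bp), the photoreceptor gene ninaE (348 and 521 bp), the glial gene repo (2557 and 2589 bp) and the fat body gene Lsp2 (374 and 532 bp) had more. The female fat body gene Yp1 and the germline gene bam had no peak of either mark.

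The 8 genes encode large proteins of several kinds. mv encodes the fly relative of LYST, a BEACH-domain protein of lysosome-related organelles, and tweek encodes a long lipid-transfer protein needed for recycling of synaptic vesicles. Bruce encodes a giant ubiquitin-conjugating protein that restrains caspases, poe the relative of the ubiquitin ligase UBR4, and puf the relative of the deubiquitinase USP34. CG8677 encodes the fly Rsf-1, a partner of the nucleosome-sliding ATPase Iswi, and dikar a bromodomain protein related to the mammalian remodelling subunit CECR2. Dlg5 encodes a scaffold of the membrane-associated guanylate kinase (MAGUK) type with roles in epithelial polarity.

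Of these genes, 4 lie on chromosome arm 2L, 2 on 3L and 2 on 3R. None lies on X, which holds 15.8% of all protein-coding genes. Their regions were 10.7 to 30.6 kb long with a median of 16.6 kb, against a median of 4.16 kb over all genes. A count in bases can be high only where the region is long, and the order changed with a relative scale: in percentage points of the region, Dlg5 ranked 11, mv 18, CG8677 33, dikar 63, puf 131, poe 177, Bruce 188 and tweek 763 of all genes. Dlg5, the last gene inside the threshold, had an excess of 3316 bp, and the next genes outside it were Dab (3254 bp), bchs (3234 bp) and Nf1 (3184 bp). No gene was passed over for overlapping a member.

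**Figure D1:**
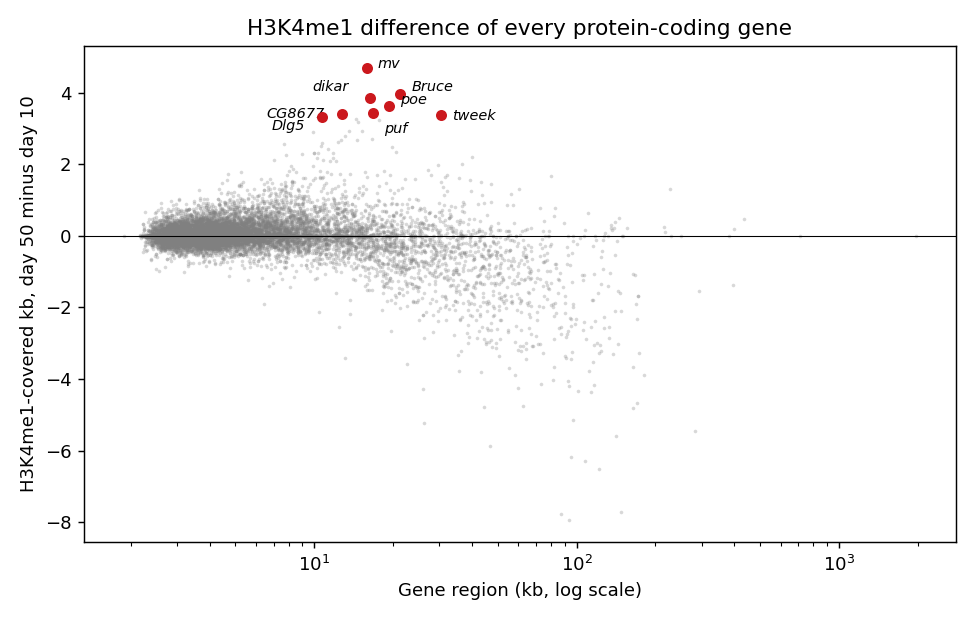
Each grey point is a protein-coding gene, placed by the length of its region in kb (log scale) and by its H3K4me1-covered kb at day 50 minus day 10; the 8 genes are red. The 8 genes lie between 10.7 and 30.6 kb in length and between 3.316 and 4.673 kb in difference, above the other genes of their length.

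Together the 8 regions had 41.7 kb under H3K4me1 peaks at day 10 and 71.3 kb at day 50. Of the day 10 bases, 95.1% were covered at day 50 too, against 81.8% over the regions of all genes and 80.9% over the 1485 genes with regions as long as theirs. In bases, 2.05 kb were covered at day 10 alone and 31.7 kb at day 50 alone. The choice of genes favours few bases covered at day 10 alone, since these count against the excess, so the share kept is a description. All 8 had more H3K4me1 bases at day 50, which the choice fixes, and 39.5% of all genes and 41.6% of those of the same length did so. At least 1.5 times as many bases were found in 4 of the 8 (mv, dikar, CG8677 and Dlg5), and in 10.3% of all genes. That ratio uses the same bases as the choice, so it too is a description.

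mv (3L, 1950306 to 1964178, 1 annotated transcript) stood nearly bare at day 10. Its region had 1092 bp (6.88%) under 3 H3K4me1 peaks in the young list and 5765 bp (36.3%) under 18 peaks at day 50. The day 10 peaks lay at the high-coordinate end, and a stretch of 12474 bp of the gene body held none. At day 50 the longest stretch of the body without a peak was 2379 bp. Of the 18 day 50 peaks, 15 touched no day 10 peak, and these held 98.1% of the bases covered at day 50 only. The new peaks had a median fold enrichment of 2.0, as the authors' peak caller gave it, and the 3 peaks over older ones a median of 4.12. Of these 3, the peaks of fold 4.32 and 4.12 lay over SCOT, a gene that overlaps the high-coordinate end of mv. The peak clear of SCOT had a fold of 2.11, close to the new peaks. With only the stronger 50% of peaks in each list, ranked by -log10 q, the direction turned and the difference of mv was -321 bp.

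Dlg5 (2L, 11508399 to 11517081) resembled mv on a smaller scale. It had 710 bp (6.65%) under 2 peaks at day 10 and 4026 bp (37.7%) under 7 peaks at day 50. Every base covered at day 10 was still covered at day 50, as in mv. A row of 6 peaks ran from 2743 to 7279 bp inside the low-coordinate end of the body at day 50, where day 10 had 1 peak of 512 bp. New peaks held 76.6% of the day 50 only bases. The seventh peak lay in the flank, over CG4970, which holds 202 bp of the difference.

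CG8677 (2L, 21221312 to 21232059) had 2569 bp (20.2%) under 6 peaks at day 10 and 5964 bp (46.8%) under 11 peaks at day 50. Near the low-coordinate end both lists had peaks of almost the same position, where a day 10 peak ran from 1843 to 2611 bp and a day 50 peak from 1858 to 2593 bp. The lists parted farther along the gene, with day 50 peaks out to 9747 bp and day 10 peaks out to 7836 bp.

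dikar (3L, 6728800 to 6743164) had 3746 bp (22.9%) under 10 peaks at day 10 and 7589 bp (46.4%) under 12 peaks at day 50. New peaks held 51.8% of the day 50 only bases, and 15.3% lay between day 10 peaks that a day 50 peak joined. The widest day 50 peak measured 1588 bp and touched a pair of day 10 peaks, of 231 and 399 bp. The longest bare stretch of the body was 3809 bp at day 10 and 1963 bp at day 50.

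The 3 ubiquitin genes already carried H3K4me1 peaks spread along their bodies in young heads. Bruce (3R, 10312039 to 10331353) had 8719 bp (40.9%) under 19 peaks at day 10 and 12670 bp (59.4%) under 22 peaks at day 50. poe (2L, 8054322 to 8071624) had 9748 bp (50.5%) under 21 peaks and 13384 bp (69.3%) under 23. puf (3R, 24635270 to 24650043) had 7947 bp (47.4%) under 19 peaks and 11379 bp (67.8%) under 23. In these 3 genes most of the added bases widened or joined older peaks: new peaks held 37.4% of the day 50 only bases in Bruce, 31.5% in poe and 15.1% in puf. The bases that joined neighbouring day 10 peaks made up 8.55% of them in Bruce, 21.0% in poe and 22.1% in puf. In Bruce the stretch next to the low-coordinate end had its first peak at 2215 bp at day 10 and at 717 bp at day 50. In poe the longest bare stretch of the body was 1930 bp at day 10 and 625 bp at day 50.

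tweek (2L, 16888490 to 16917052), with the longest region of the 8, had 7180 bp (23.5%) under 20 peaks at day 10 and 10562 bp (34.6%) under 26 at day 50. It was the gene with the most bases lost, with 630 bp covered at day 10 only and 4012 bp at day 50 only. Nested inside it are the protein-coding genes CG42556, CG31805, CG12288 and ApepP, and 7.63% of its day 50 only bases lay in protein-coding neighbours or nested genes. CG31805 had no peak of either mark at either age. The longest bare stretch of tweek, which contained that gene, measured 5187 bp at day 10 and 4927 bp at day 50.

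**Figure D2:**
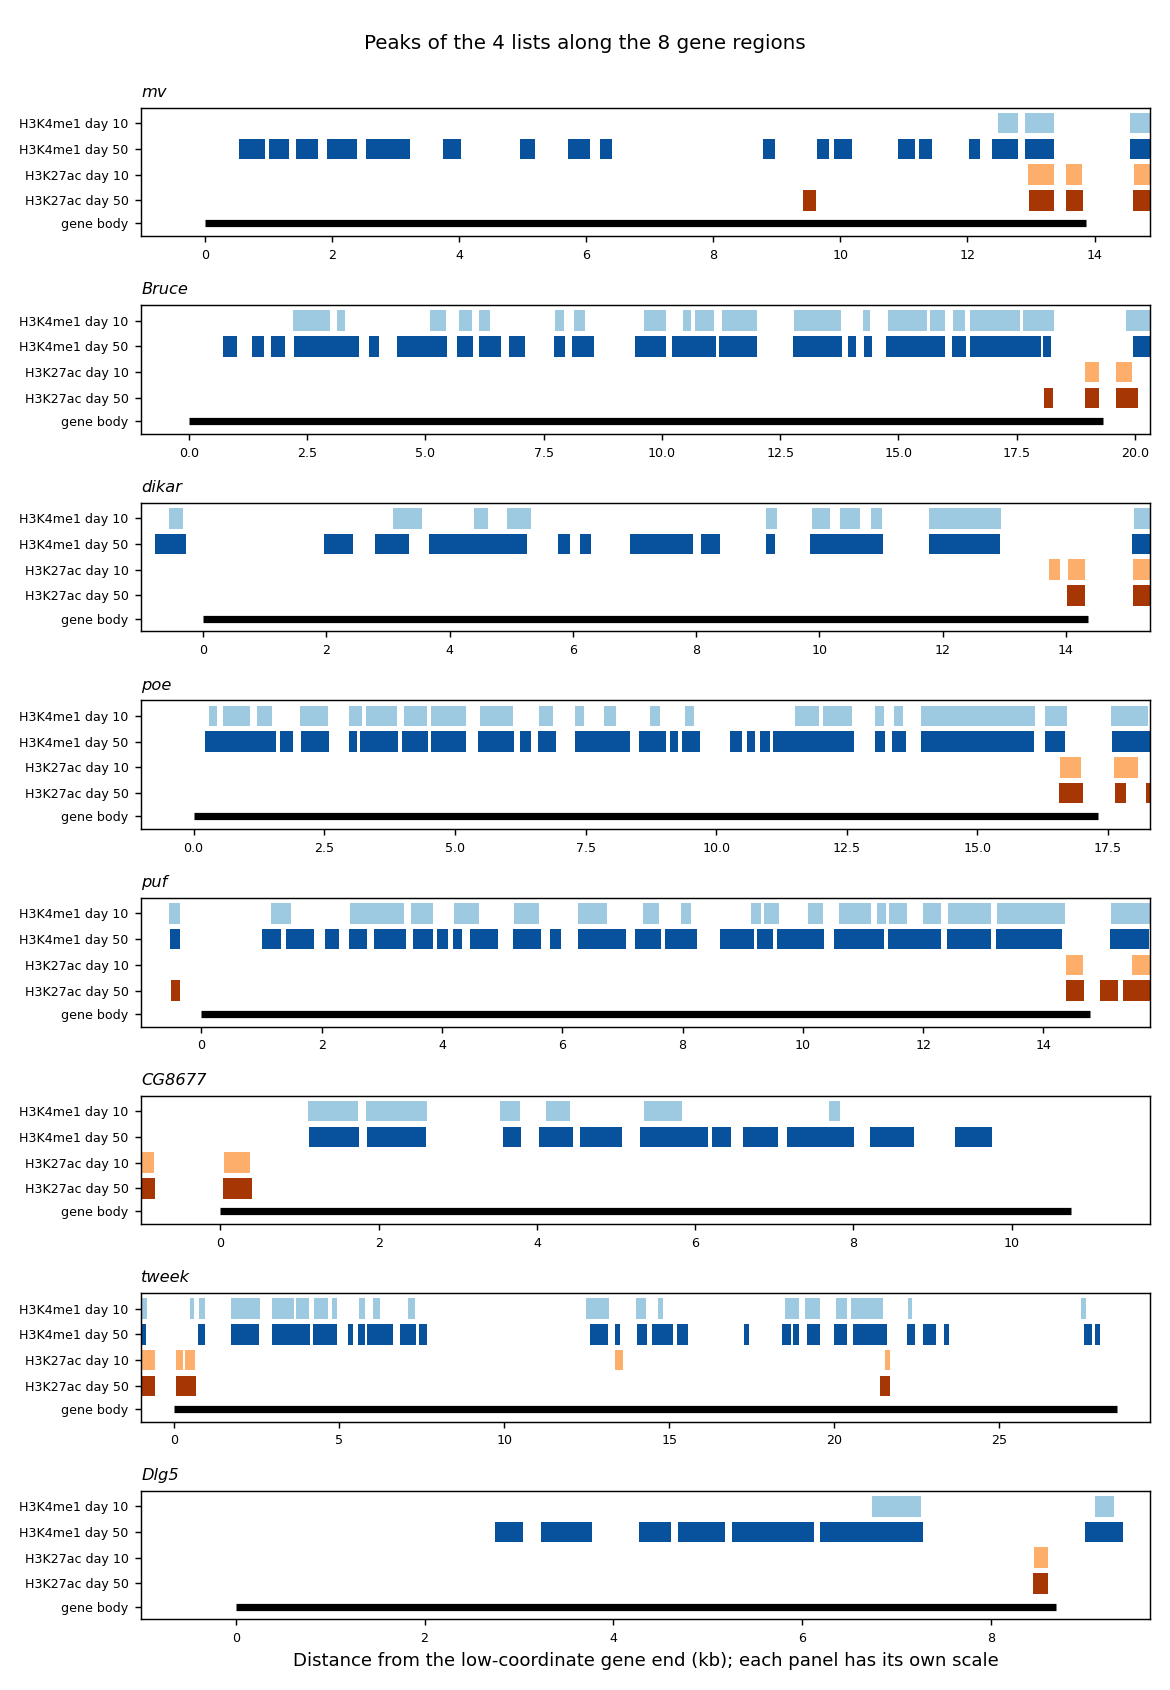
Each panel shows 1 gene region, with distance from the low-coordinate gene end in kb on the x axis and a bar for each peak of the 4 lists; the black line is the gene body. The day 50 H3K4me1 peaks fill stretches of the bodies of mv and Dlg5 that held no day 10 peak, and widen or join day 10 peaks in Bruce, poe and puf, while H3K27ac peaks sit mostly near 1 end.

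The 8 regions held 100 H3K4me1 peaks in the young list and 142 in the old one, with more in the old list for each gene. Of the 142, 89 (62.7%) overlapped a day 10 peak by at least 1 base. In the whole day 50 list 83.2% of peaks did so, and a lower share at genes chosen for their excess over day 10 follows in part from that choice. The other 53 peaks held 52.6% of the day 50 only bases. Peaks touching 1 day 10 peak numbered 73 and held 30.5%, and 16 peaks touching more than 1 held 16.9%.

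The new peaks ranked low within their own list. The 53 had folds of 1.41 to 2.72 with a median of 2.1, and 49 of them lay under the median of the whole day 50 list (2.58). Peaks over 1 day 10 peak had a median fold of 2.46 and reached 4.32, and those over several had a median of 2.34 and a median width of 1094 bp. The median -log10 q was 4.58 for new peaks and 7.90 for peaks over 1 day 10 peak. Ranked by fold within the day 50 list, the median percentile was 18.8 for new peaks, 42.2 for peaks over 1 day 10 peak and 34.0 for peaks over several. Day 50 peaks elsewhere that touch no day 10 peak were not compared, so the low rank is not shown to be particular to these genes. Among the stronger 50% of peaks the summed excess of the 8 genes was 13505 bp, with 5 bp in CG8677, 575 bp in Dlg5, 1031 bp in dikar, 1156 bp in tweek and 1695 bp in puf. Bruce (4877 bp) and poe (4487 bp) had a larger excess among these peaks than in the whole lists.

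**Figure D3:**
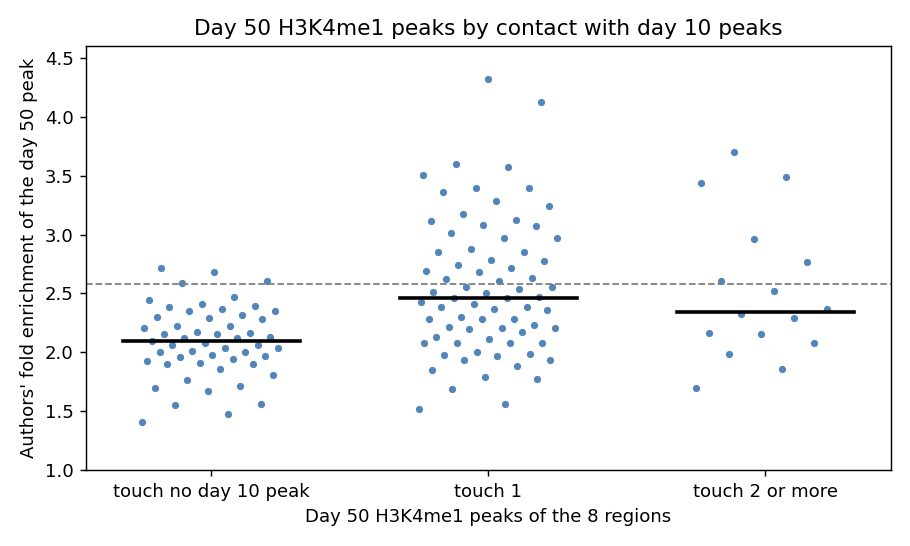
Each point is a day 50 H3K4me1 peak of the 8 regions, with the authors' fold enrichment on the y axis, by the number of day 10 peaks it touches; black lines are medians and the dashed line is the median of the whole day 50 list. Peaks that touch no day 10 peak reach 2.72 and have a median of 2.1, under the dashed line at 2.58.

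The day 50 only bases lay inside the genes. Of them, 94.4% were more than 1000 bp inside both gene ends, a zone that made up 77.7% of the regions' length, 3.87% lay within 1000 bp inside an end and 1.73% in the flanks. For genes of the same length the interior zone was 77.1% of the regions and held 79.9% of their day 50 only bases. The choice by the largest excess favours the interior, since flanks and ends hold only 2000 bp each per gene. The difference between these shares is therefore a description. By gene the interior share ran from 91.1% in mv to 100% in CG8677. Of the day 50 only bases, 1.75% lay in a protein-coding neighbour or nested gene. The files used here give neither strand nor exons for these genes, so the bases were not assigned to promoters, exons or introns.

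Each gene had a preferred end for H3K27ac, a mark the choice of genes did not use. With H3K27ac bases of both ages summed within 1000 bp on each side of an end, the high-coordinate end held more in 6 genes (mv, Bruce, dikar, poe, puf and Dlg5) and the low-coordinate end in CG8677 and tweek. In 7 of the 8 the other end held none, and in puf it held 156 bp against 1606 bp. These windows reach outside the gene, and except in dikar and Dlg5 some or all of the bases lay over neighbouring genes. The acetylated end is therefore a direction for counting and was not assigned to the gene itself. Counted from the acetylated end, and with each gene body split into 10 equal bins, the first bins took 85 bp of the 31129 bp of day 50 only H3K4me1 in the bodies (0.273%), although 4420 bp there were covered at both ages. The second bins took 4.35% and had the most bases covered at both ages (8410 bp). The middle 4 bins took 50.7% and the farthest 3 bins 33.8%. This profile was not compared with other genes, so it is not shown to be particular to the 8. In Dlg5 the acetylated end rests on a single H3K27ac peak, of 147 bp at day 10 and 153 bp at day 50. Genes differed in this profile: in mv bin 9 from the acetylated end was 76.7% covered at day 50 only, in Dlg5 bin 4 was 94.0% covered and the last 3 had none, and in dikar bin 5 reached 74.0%.

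**Figure D4:**
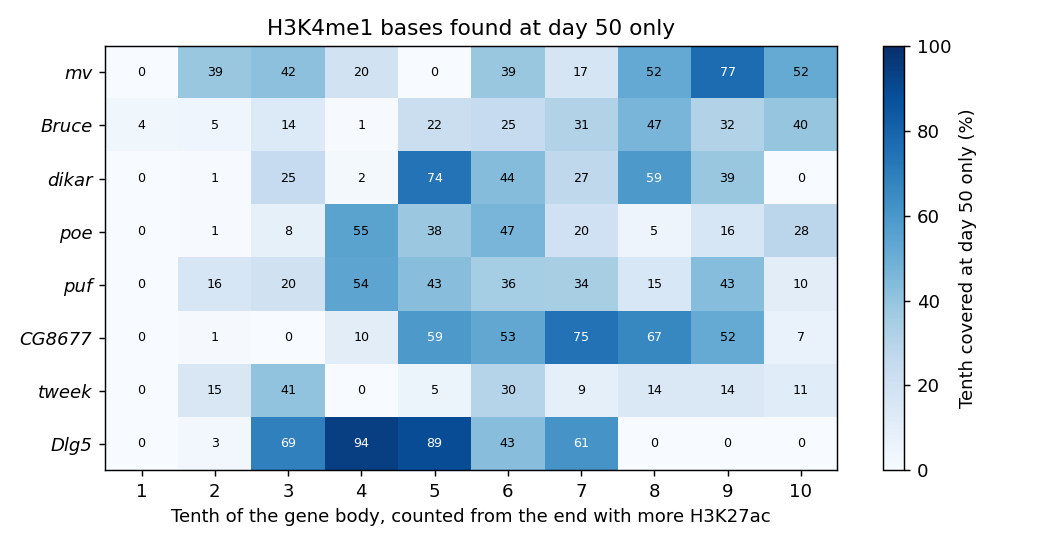
Rows are the 8 genes and columns are the 10 equal bins of the gene body counted from the end with more H3K27ac; each cell gives the percent of that bin under H3K4me1 peaks at day 50 and not at day 10. The first column reaches 3.57% at most, and the highest cell is bin 4 of Dlg5 (94.0%).

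H3K27ac itself was sparse at these genes and differed little between the lists. The 8 regions had 5654 bp under 20 H3K27ac peaks at day 10 and 6620 bp under 22 at day 50. The median share of the region was 4.06% and 4.28%, below the median of 6.44% and 6.87% for genes of the same length. More H3K27ac bases at day 50 were found in 5 of the 8 genes, against 47.1% of all genes and 48.1% of genes of the same length, so the count is near the background. The other 3 had fewer, against 18.5% of all genes and 33.1% of genes of the same length, so this count too is near the background of genes as long. Both readings hold for flanks of 1000 bp. Genes with more H3K27ac bases numbered 6 with the gene body alone and 7 with flanks of 2000 bp, where no background was computed. The median difference was 0.283 percentage points in the 8 and 0 over all genes.

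By gene, puf had 569 bp under H3K27ac at day 10 and 1193 bp at day 50, Bruce 633 and 966 bp, and mv 918 and 1130 bp. CG8677 had 475 and 540 bp, and Dlg5 147 and 153 bp. In the other direction dikar had 718 and 570 bp, poe 852 and 747 bp, and tweek 1342 and 1321 bp. At least 1.5 times as many bases at day 50 were found in puf and Bruce, 2 of 8, against 15.0% of all genes. In puf nearly all of that difference lay in the flanks: its body had 283 and 300 bp, and 1 flank overlaps ash2, a trithorax group gene whose own body had 769 and 1668 bp. Bruce had 301 and 495 bp in its body, and the rest lay over its neighbour CG12818 (332 and 471 bp). With peaks of -log10 q of at least 5 the difference of Bruce was 142 bp and that of mv 9 bp. In poe the sign depended on the flank: the body had 399 and 443 bp, and the flank peaks lay over its neighbour MED20. Flank H3K27ac of CG8677 lay over Atg18b, and its body had 321 and 366 bp. Flank H3K27ac of tweek lay over osi, and its body had 936 and 905 bp. Those body peaks lay over nested genes and were not assigned to either gene. The nested genes were the non-coding gene CR44392 (530 and 600 bp), CG12288 (235 and 0 bp) and ApepP (171 and 305 bp). In mv the H3K27ac peaks at the high-coordinate end overlapped SCOT, a mitochondrial ketone-metabolism gene, and were not assigned to either gene. Of the 212 bp by which mv had more at day 50, 203 bp were a peak inside mv and clear of SCOT.

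**Figure D5:**
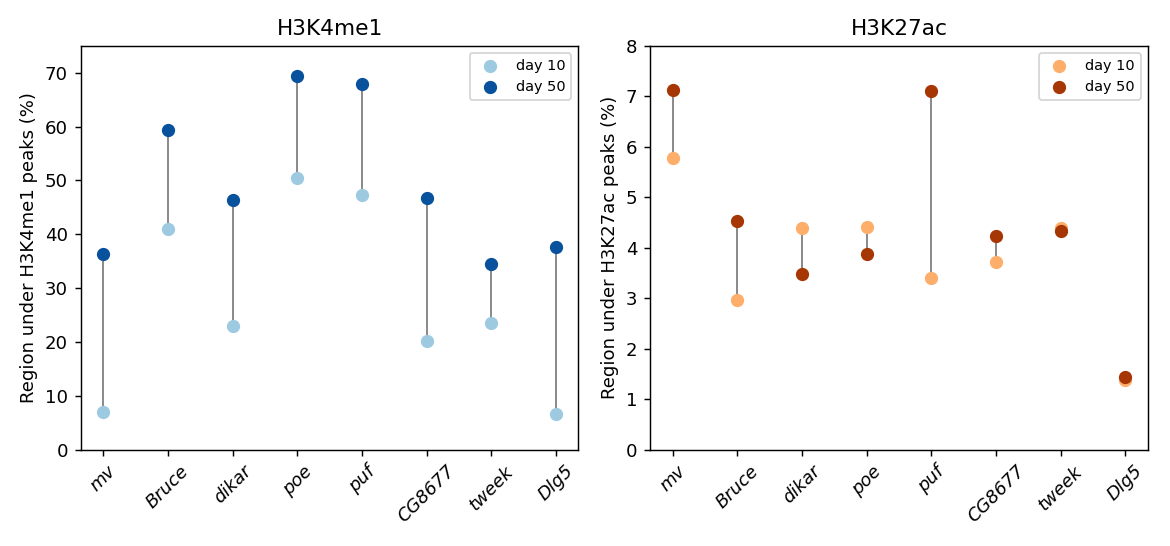
For each gene the percent of the region under H3K4me1 peaks (left) and H3K27ac peaks (right) is shown at day 10 (light) and day 50 (dark), joined by a line; the y scales differ. For H3K4me1 all 8 dark points lie higher, from 34.6% in tweek to 69.3% in poe, while for H3K27ac the dark point is higher in 5 genes and no value exceeds 7.12%.

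The bases with H3K4me1 at day 50 only almost never carried H3K27ac. Of them, 0.568% lay under a day 50 H3K27ac peak and 0.758% under a day 10 one, while 6.26% of the bases covered by H3K4me1 at both ages lay under a day 50 H3K27ac peak. H3K27ac sat mostly near a gene end, while 94.4% of the day 50 only bases were in the interior. The same shares were not compared for other genes, so low overlap is not shown to be particular to the 8. No such base lay under day 50 acetylation in 4 of the 8 genes (mv, Bruce, CG8677 and Dlg5). tweek had 112 bp, the most of the 8, and these lay over its nested gene ApepP. An H3K27ac peak in the interior of mv, 203 bp wide and 9414 to 9617 bp from the low-coordinate end, was in the day 50 list only. The nearest day 50 H3K4me1 peak started at 9635 bp and did not overlap it.

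Genes related to the 8 by function were followed in 7 lists, with the 8 themselves left out. Over all genes, 39.5% had more and 36.7% fewer H3K4me1 bases at day 50, and the rest had equal counts. Equal counts were rare in the lists, so their counts are to be read against the ratio of more to fewer over all genes. The lists were not matched to all genes by length. Of 20 other ubiquitin ligase genes, 10 had more and 10 fewer, with a median difference of 1.03 percentage points of the region, where the median over all genes was 0. ctrip, a ligase gene of the clock and of chromatin, had 7487 bp at day 10 and 9183 bp at day 50, and hiw, whose ligase limits synaptic growth, had 12131 and 8447 bp. Of 24 other deubiquitinase genes, 11 had more and 13 fewer, with a median of -0.192. Among them Usp32 had 2616 and 5288 bp, and Usp16-45 had 3518 and 2640 bp.

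The bridge-like lipid transfer genes related to tweek all pointed one way: 5 of 5 had more H3K4me1 bases at day 50, with a median of 4.44 percentage points. hob, which ranked 15 of all genes, had 2078 and 4981 bp, Vps13 1458 and 3108 bp, and Atg2, the autophagy member, 4152 and 4239 bp. The other MAGUK genes went against Dlg5: 0 of 7 had more and 7 had fewer, with a median of -1.38. sdt, a polarity scaffold of photoreceptors and epithelia, had 11049 and 8064 bp. Of these 7 genes, 6 also had fewer H3K27ac bases at day 50.

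Chromatin remodelling genes other than dikar and CG8677 had more H3K4me1 bases at day 50 in 12 of 16 and fewer in 4, with a median of 2.61 percentage points. dom, an ATPase that exchanges histone variants, had 2949 and 5280 bp, and E(bx), the large subunit of the NURF complex, 5142 and 4492 bp. The ATPase gene Iswi had 2474 and 2652 bp. Among 17 BEACH-domain and pigment granule genes, 9 had more and 7 fewer, with a median of 0.144. The BEACH gene bchs had 7163 and 10397 bp, and rg, the neurobeachin relative, 3944 and 2257 bp. Of 12 other core apoptosis genes, 4 had more and 8 fewer, with a median of -1.66. Dredd, a caspase gene of the Imd pathway, had 1623 and 2542 bp, and the death inducer gene rpr 684 and 257 bp.

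For H3K27ac, 47.1% of all genes had more bases at day 50 and 18.5% fewer, so 71.8% of the genes with any difference had more. Among genes as long as the 8, 48.1% had more and 33.1% fewer, and the lists were not matched by length. Of 20 ubiquitin ligase genes 18 had more and 1 had fewer, and of 24 deubiquitinase genes 17 had more and 5 had fewer. Among 17 BEACH and pigment granule genes 11 had more and 5 fewer, and among 5 lipid transfer genes 4 had more and 1 fewer. Of 16 chromatin remodelling genes 9 had more and 7 fewer, of 12 apoptosis genes 8 had more and 4 fewer, and of 7 MAGUK genes 1 had more and 6 fewer.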

How the data were processed

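Nuclei of fly heads were digested with micrococcal nuclease and sonicated before immunoprecipitation, per the labels' protocols. The build was BDGP6 and the tools included MACS2 2.1.1 and STAR 2.5.3a, per the submitters' processing notes, which give no roles. Each deposited list pools both replicates, as its peak names show. Of the values the authors deposited for each peak, the fold enrichment and the -log10 q were used, and only within a list. A list from deeper sequencing holds more weak peaks, so depth and age cannot be told apart.

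Gene positions came from the RefSeq table of Release 6. Covered bases, bases at 1 or both ages and their place in the gene were computed with Python 3.11.15, checked on simulated peaks. No test across genes or ages was made. The members, gene lists and tests were chosen with earlier results of these data known. Genes named from a list are those with the largest gain and the largest loss (or, with no loss, the smallest gain), with Vps13 and Iswi added after their values were seen. List symbols were matched by symbol or synonym, and calypso was not matched. Sequences are not shown here.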

Additional observations from a re-analysis of the deposited data

How the results depend on the processing

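In all, 9 alternatives were tried. The summed H3K4me1 excess of the 8 regions, 29628 bp, lay between 23306 and 33768 bp under 6 of the 7 that apply to it. It was 13505 bp with the stronger 50% of the peaks, where mv had -321 bp. In mv that setting removes the new peaks, which are weak. It also removes the day 50 peak at 12391 to 12801 bp (-log10 q 7.07). The day 10 peak there, at 12474 to 12799 bp (-log10 q 10.8), is kept, which turns the sign. With -log10 q of at least 5 every gene still had more bases at day 50, mv 1757 bp. The share of day 50 only bases away from the gene ends was 99.5% with the stronger 50% and 97.8% with ends of 500 bp, and lay between 90.9% (flanks of 2000 bp) and 96.1% (gene body alone) under the other 6. The share of day 50 peaks overlapping a day 10 peak was 44.2% with the stronger 50%, 72.9% with peaks up to 200 bp apart joined and 48.6% when 50% of the peak had to overlap. The number of genes with more H3K27ac bases lay between 5 and 7. The H3K27ac difference of poe, -105 bp, was 44 bp in the gene body alone, 39 bp with flanks of 500 bp, 498 bp with flanks of 2000 bp and 266 bp with the stronger 50%, and that of tweek, -21 bp, was 47 bp with flanks of 2000 bp and 214 bp with the stronger 50%; the cause was not tested. Leaving out a replicate was not run. No paired analysis was possible because each list pools both replicates.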

Other observations

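Genes next to the 8 also differed between the lists. The endoplasmic reticulum GTPase gene atl, beside puf, had 5349 bp under H3K4me1 peaks at day 10 and 6047 bp at day 50, and for H3K27ac 1071 and 2282 bp. Atg18b, beside CG8677, had 4637 and 4321 bp of H3K4me1. The Toll ligand gene spz4, which overlaps the low-coordinate end of Dlg5, had no H3K4me1 at day 10 and 504 bp at day 50.

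Farther down the order of H3K4me1 excess stood the dynein heavy chain gene Dhc64C, ranked 12 with 3360 bp at day 10 and 6467 bp at day 50, FASN1, a gene of fatty acid synthesis, ranked 13 with 3818 and 6749 bp, and E(Pc), ranked 14 with 4831 and 7759 bp.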
